A study of Danio rerio with 9 samples.

Results

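Zebrafish (Danio rerio) chromosomes 8, 10, 11, 16 and 20 carried more ATAC-seq peaks per megabase in spermatozoa than any other chromosome except chromosome 4. They were selected on this density, the mean of 9 deposited peak lists. All peaks on them were taken, 56300 of 253847. Overlapping peaks, sharing 1 bp or more, were joined across lists into regions, 28650 on the 5 chromosomes among 126838. The libraries came from spermatozoa of 2 kinds of adult males. Injured males had part of the heart damaged by freezing (cryoinjury) and were sampled 7 days later (5 libraries), and control males were uninjured (4 libraries). No strain, genotype, age or number of males per library is given in the labels. The 19 other chromosomes without 4 served as background, and chromosome 9, the sparsest of these 19, as contrast.

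In ATAC-seq the Tn5 transposase cuts and tags DNA that is not tightly packed, so reads pile up over accessible sites and a peak caller marks them. Zebrafish sperm is known to keep its DNA on histones instead of protamines, so its chromatin holds nucleosomes that can be open or closed. The lists hold positions and a score per peak but no genes or expression, so the labelled cell type could not be checked against markers.

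Read depth per library is unknown, so where no peak is listed a site was merely not detected. The lists held 15508 to 29622 peaks in injured and 30126 to 45277 in control libraries. Each library was made from 100000 spermatozoa. The labels do not say whether each came from a separate male, so p-values reflect variation among libraries that may be technical. Equal-length lists, with the 15508 best-ranked peaks of each library, are used beside the lists as deposited.

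The mean density over the 9 libraries chose the chromosomes, so the following densities are a description. Chromosome 16 had 25.2 ± 7.83 peaks per Mb (SD, n = 9), chromosome 10 had 24.9 ± 6.51, chromosome 20 had 24.7 ± 7.78 and chromosome 8 had 24.4 ± 7.93. Chromosome 11, the last inside the choice, had 22.97 ± 6.87, and chromosome 17, the first outside it, had 20.5 ± 6.85. Chromosome 9 had 10.8 ± 3.8. These SDs are wide because the lists differ in length. Within each library the order was steadier. The 5 chromosomes were denser than every background chromosome in 44 of 45 pairs of library and chromosome, the exception being chromosome 11 in control library 4. The count was also 44 of 45 in the equal-length lists.

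The 5 chromosomes together span 255.7 Mb, counted to the last peak of each, or 20.2% of the length of the 24 chromosomes. They held 28.4% of the peaks there. The injured libraries 1 to 5 had 25.7, 23.8, 14.1, 19.5 and 15.3 peaks per Mb on the 5 chromosomes, and the control libraries 1 to 4 had 29.1, 29.4, 25.8 and 37.4. On the background chromosomes the same libraries had 16.7, 13.99, 8.43, 13.1 and 9.61, and 17.4, 18.96, 16.8 and 25.5 peaks per Mb. The 5 chromosomes were therefore denser in 9 of 9 libraries, whatever the length of the list. The ratio of density to background was 1.58 ± 0.0862 (SD, n = 9), from 1.47 in control library 4 to 1.70 in injured library 2. In the equal-length lists it was 1.51 ± 0.124 (SD, n = 9), and again lowest in control library 4, at 1.28. By chromosome the mean ratio was 1.63 ± 0.150 for 10, 1.63 ± 0.123 for 16, 1.596 ± 0.107 for 20, 1.56 ± 0.108 for 8 and 1.48 ± 0.0918 for 11 (SD, n = 9).

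**Figure D1:**
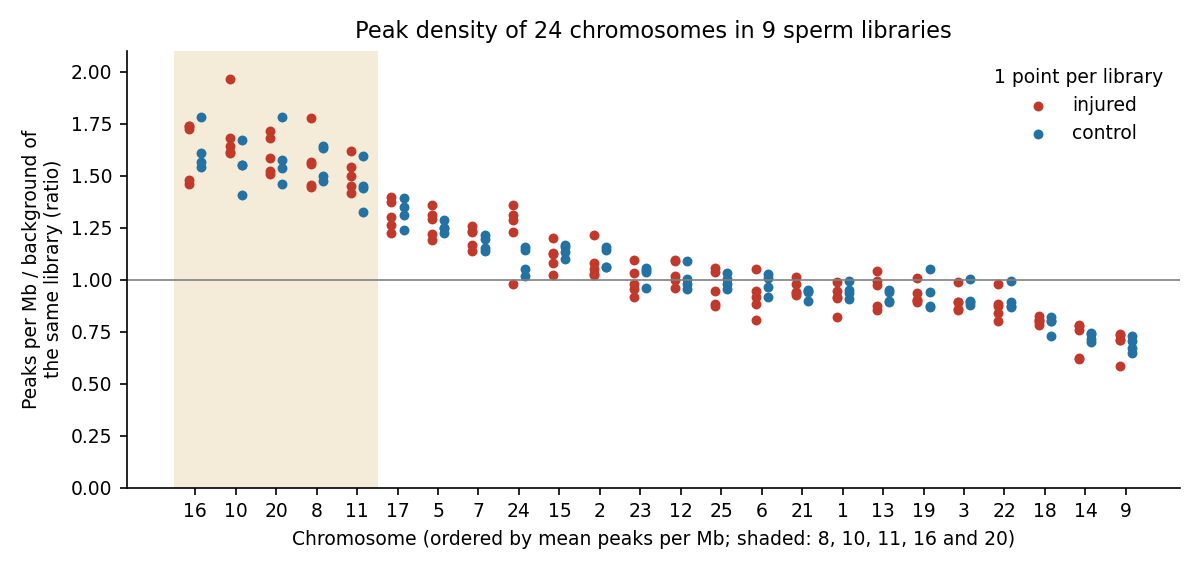
Peaks per Mb of 24 chromosomes divided by the background density of the same library, with 1 point per library (injured red, control blue) and the 5 peak-dense chromosomes shaded. The shaded chromosomes have mean ratios of 1.48 to 1.63, and injured and control points overlap on each of them.

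The high density was neither uniform nor confined to a few windows. The chromosomes were divided into whole windows of 1 Mb, 254 on the 5 chromosomes and 1004 on the background, and peaks of all 9 libraries were summed. The median window held 180.5 peaks on the 5 chromosomes, 100.5 on the background and 67.5 on chromosome 9. Of the 254 windows 179 (70.5%) lay above the background median, against 33.9% of windows on chromosome 9. Among the percentiles compared, the 10th was raised least. The 10th percentile was 56.6 against 43 peaks, a ratio of 1.32, while the median ratio was 1.796 and the ratio at the 75th percentile was 1.73. The densest 10% of windows of each chromosome held 24.1% of its peaks on the 5 chromosomes, 27.2% on the background and 31.1% on chromosome 9. By this measure peaks were less concentrated in few windows on the 5 chromosomes than elsewhere.

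**Figure D2:**
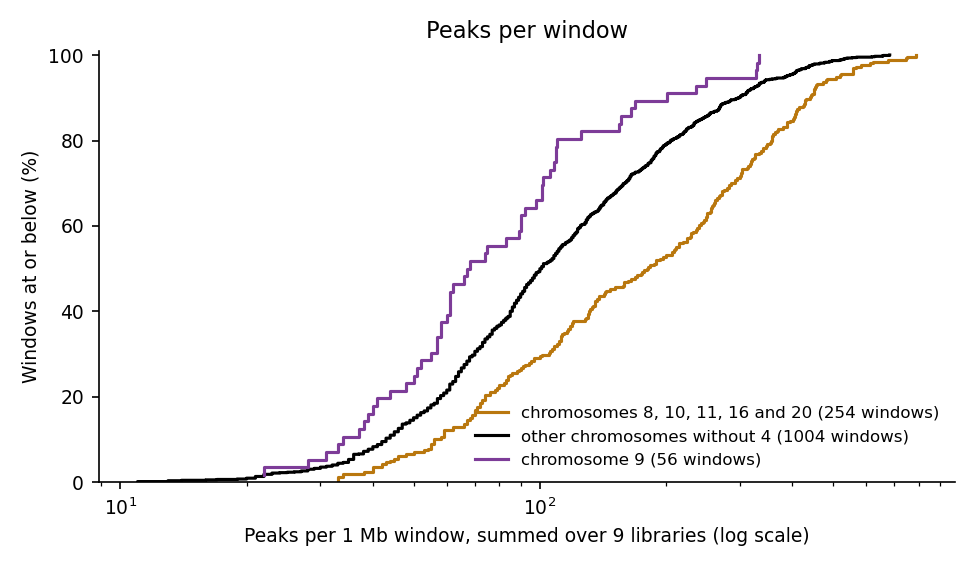
Cumulative percentage of 1 Mb windows (vertical axis) by the number of peaks summed over 9 libraries (horizontal axis, log scale). The curve of the 5 chromosomes crosses its median at 180.5 peaks and that of the background at 100.5, and at the 10th percentile they lie at 56.6 and 43 peaks.

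The 5 chromosomes differed in this respect. On chromosome 8, 77.8% of windows exceeded the background median and its 10th percentile was 75.1 peaks, so even its sparse windows were fuller than the background's. On chromosome 20, 74.5% did so, with a 10th percentile of 70 peaks. On chromosomes 10 and 16 the 10th percentiles were 48.8 and 47.8 peaks, near the 43 of the background, whereas their medians were 229 and 210 peaks. Chromosome 11 had a median of 116 peaks, only 1.15 times the background, but a 90th percentile of 491, 1.65 times it. Its density thus sat in fewer windows, and its densest 10% held 29.5% of its peaks.

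Along the chromosomes the dense windows lay together. When each chromosome was cut into 10 parts of equal length, chromosome 10 had 36.5 ± 8.83 and 29.6 ± 7.36 peaks per Mb in parts 1 and 2, then 6.24 ± 2.65 in part 5 and 41.2 ± 12.4 in part 9 (SD, n = 9). Chromosome 16 had the same shape, with 35.0 ± 8.82 in part 1, 6.65 ± 2.65 in part 6 and 40.7 ± 15.04 in part 10. Part 5 of chromosome 10 and part 6 of chromosome 16 were below the background, at 0.477 and 0.542 times the density of the same part there. The inner 50% of each as a whole was above it, at 1.42 and 1.31 times. On chromosome 11 parts 2, 3, 9 and 10 had 44.6 ± 14.8, 33.9 ± 11.3, 41.0 ± 12.8 and 40.9 ± 11.01 peaks per Mb, and part 8 only 6.33 ± 2.48 (SD, n = 9). Its inner 50% as a whole was below the background, with 10.4 ± 3.22 peaks per Mb (SD, n = 9), 0.801 times the density there.

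Chromosomes 8 and 20 were laid out otherwise. On chromosome 20 the density was one-sided. It was 14.8 ± 4.88 peaks per Mb in the first 25% of its length, 0.783 times the background there, and 37.1 ± 11.1 in the last 25%, 2.11 times it (SD, n = 9). Chromosome 8 was densest in part 3, with 47.2 ± 15.8 peaks per Mb against 20.5 ± 8.12 in part 1, and rose again to 36.2 ± 11.01 in part 10. Its inner 50% as a whole had 21.2 ± 7.07 peaks per Mb and its outer 50% had 27.5 ± 9.24 (SD, n = 9). The background also had denser ends, with 20.7 ± 6.74 and 23.0 ± 7.55 peaks per Mb in parts 1 and 10 and 11.003 ± 3.7 in part 7. Chromosome 9 reached the background only at its far end, where it had 27.3 ± 9.19 in part 10 but 5.57 ± 2.18 in part 2.

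**Figure D3:**
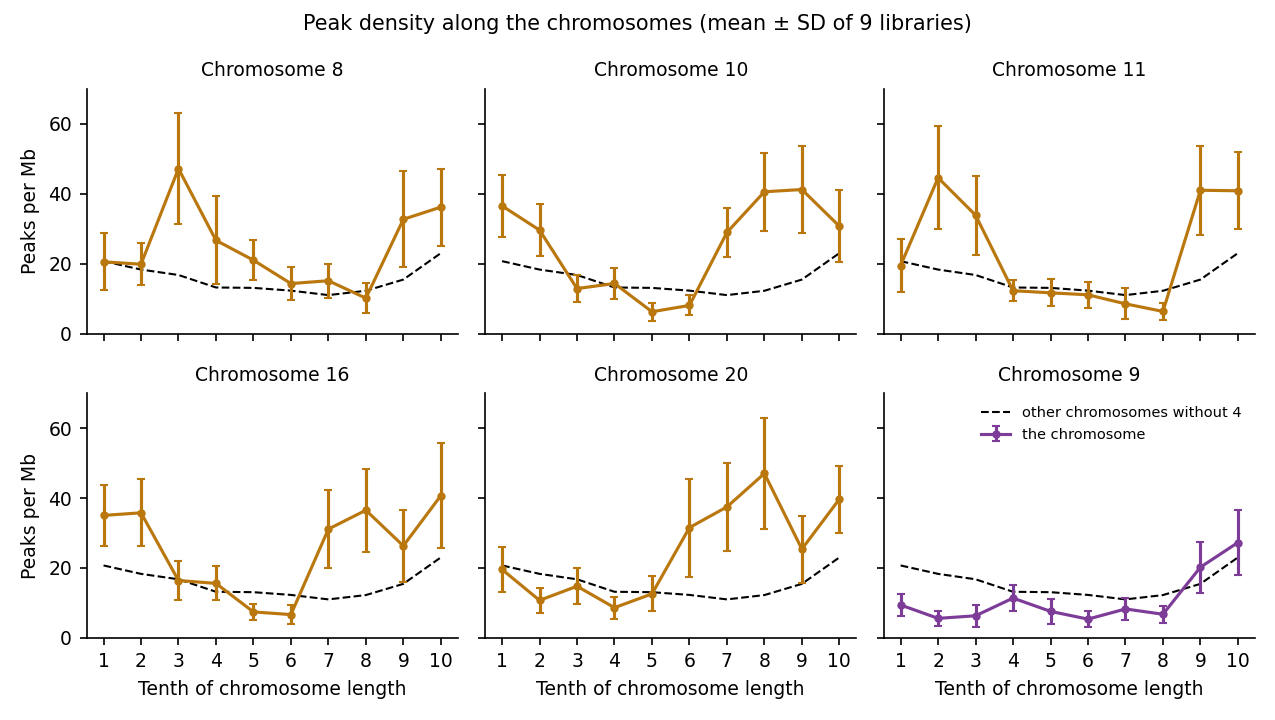
Peaks per Mb in 10 parts of equal length from the start to the end of each chromosome (mean and SD of 9 libraries), with the mean of the other chromosomes without 4 as a dashed line. Dense parts lie next to each other, and a part near the middle of chromosome 10 and of chromosome 16 falls below the dashed line.

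To describe these blocks, a dense stretch was taken as at least 5 consecutive 1 Mb windows above the 75th percentile of background windows (184 peaks). This definition was made after the data had been seen. The 5 chromosomes held 12 stretches of 5 to 16 Mb, at least 2 on each. They made up 39.8% of the 254 windows and held 65.4% of the peaks. The 19 background chromosomes held 11 stretches, on 10 of them, which made up 80 of 1004 windows (7.97%) and held 19.1% of the peaks. The longest run of windows above the 75th percentile was 16 on chromosome 10, 13 on chromosome 8, 9 on chromosomes 16 and 20, and 7 on chromosome 11. Chromosome 17, next in density after the 5, had a run of 14. Among the other background chromosomes it was 10 on chromosome 5, 9 on chromosome 7, 8 on chromosome 23 and 3 on chromosome 9. Long runs were thus not particular to the 5 chromosomes.

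In GRCz11 the stretches lay from 8 to 21 Mb and from 46 to 54 Mb of chromosome 8, from 2 to 7 Mb and from 29 to 45 Mb of chromosome 10, and from 7 to 12 Mb and from 38 to 45 Mb of chromosome 11. On chromosome 16 they lay from 1 to 10 Mb, from 39 to 46 Mb and from 47 to 55 Mb, and on chromosome 20 from 29 to 38 Mb, from 39 to 45 Mb and from 47 to 55 Mb. The longest, on chromosome 10, had 38.4 ± 10.3 peaks per Mb (SD, n = 9) and held 54.9% of that chromosome's peaks in windows. Each of the 12 was denser than the background mean of the same library in 9 of 9 libraries. This follows in large part from the definition, since the sum over the same libraries picked the windows. Their means ran from 34.5 to 49.8 peaks per Mb.

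Inside the stretches of the 5 chromosomes the density was 40.1 ± 12.1 peaks per Mb, and in the fewer stretches of the background it was 37.1 ± 11.6 (SD, n = 9). Outside them it was 14.0 ± 4.30 and 13.7 ± 4.57, a ratio of 1.03. This ratio is a description of the chosen definition, which removes dense runs from both sets and so lowers it by construction, and it moved with the definition. With a threshold at the 90th percentile the outside ratio was 1.43, with 0.5 Mb windows it was 1.28, and with runs of 3 windows 1.14. In the equal-length lists it was 1.15, and 57.7% of the peaks lay in stretches.

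The blocks were alike between libraries. In the stretches lay 62.4% to 68.2% of the peaks of a library on the 5 chromosomes, and density inside was 2.52 to 3.24 times that outside. Since the same libraries defined the stretches, a higher density inside was largely fixed by the definition. Stretches found from the control libraries alone had 31.9 ± 8.59 peaks per Mb in the injured libraries, which had not been used, against 11.6 ± 2.85 outside (SD, n = 5). Stretches found from the injured libraries alone had 49.6 ± 7.42 peaks per Mb in the control libraries and 17.5 ± 3.40 outside (SD, n = 4). As a description, Spearman's rho over the 254 windows was 0.972 between summed injured and summed control peaks, and 0.805 to 0.936 between single libraries. Such windows share chromosome structure, mappability and base composition, whose part was not tested.

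The density was high both in shared regions and in those of a single library, but for fully shared regions not on each of the 5 chromosomes. On the 5 chromosomes 17949 regions (62.6%) were detected in 1 library, 10353 in 2 to 8 and 348 (1.21%) in all 9. On the background these shares were 63.3% for 1 library and 1.36% for all 9. Regions of 1 library were 1.55 times as dense as on the background (70.2 against 45.2 per Mb, 95% exact binomial interval 1.53 to 1.58). Regions of 2 to 8 libraries were 1.61 times as dense (1.57 to 1.64), and regions of all 9 were 1.40 times as dense (1.36 against 0.970 per Mb, 1.24 to 1.59). The intervals cover counting error only, and neighbouring regions are not independent. The order of the ratios for 1 and for 2 to 8 libraries depended on the processing. It was reversed in the equal-length lists (1.61 and 1.51), with the better-ranked 50% of each list (1.60 and 1.47) and with 50% reciprocal overlap (1.62 and 1.56). With any 1 library left out it stayed, at 1.55 to 1.58 and 1.59 to 1.63. Counted library by library, regions of that library alone had ratios of 1.43 to 1.71. The peaks in all these regions entered the density that chose the chromosomes, so ratios above 1 are a description and no separate support.

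The chromosomes parted most in their fully shared regions. Chromosome 16 had the most of them per Mb, 1.83, which was 1.88 times the background density (95% exact binomial interval 1.52 to 2.31), and chromosome 10 had 70, at 1.59 times (1.23 to 2.03). Chromosome 8 had 71, at 1.35 times (1.04 to 1.72). Chromosomes 11 and 20 had 50 and 56, at 1.13 (0.835 to 1.51) and 1.05 (0.784 to 1.37) times, intervals that include 1. Chromosome 20 had at the same time the most regions of 1 library per Mb, 75.1, or 1.66 times the background (1.61 to 1.71). Fully shared regions were clustered. On chromosome 16, 21 of them lay from 36 to 37 Mb and 14 from 18 to 19 Mb. On chromosome 10, 14 lay from 12 to 13 Mb, and the fullest 1 Mb window of the background held 38. The intervals do not allow for such clustering. How far these windows raised or lowered the ratios of single chromosomes was not tested.

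The density was also compared by rank within the list. Each list was cut by score into 5 parts of equal size. Among the best-ranked peaks the 5 chromosomes were 1.34 ± 0.0859 times as dense as the background, and in the next part 1.57 ± 0.128 times (SD, n = 9). In the 3 lower parts the ratios were 1.68 ± 0.130, 1.66 ± 0.106 and 1.65 ± 0.0715 (SD, n = 9). The ratio was lowest among the best-ranked peaks in 9 of 9 libraries. Chromosome 9 ran the other way, from 0.812 ± 0.0732 among the best-ranked to 0.601 ± 0.0613 among the last-ranked peaks. The surplus of the 5 chromosomes was thus smallest among the best-ranked peaks but present there too. As peaks of every rank entered the choice of the chromosomes, this is a description.

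**Figure D4:**
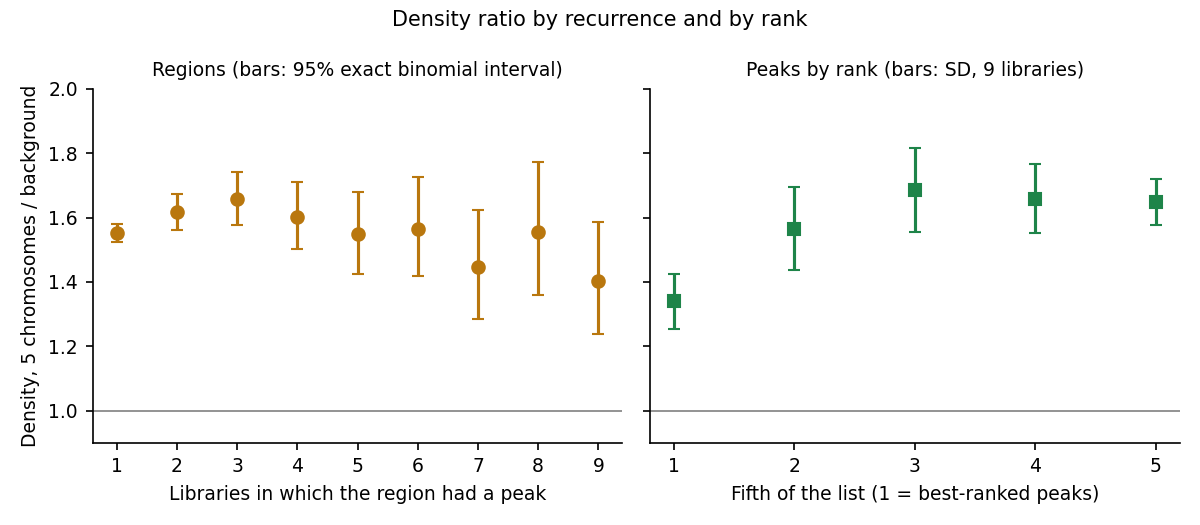
Density on the 5 chromosomes divided by that on the background, for regions by the number of libraries with a peak (left, bars are 95% exact binomial intervals) and for peaks by rank within the list (right, mean and SD of 9 libraries). Ratios run from 1.40 to 1.66 on the left, and the best-ranked peaks have the lowest ratio, 1.34, on the right.

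Taken over the 5 chromosomes together, fully shared regions were not gathered in the dense stretches. Inside the stretches lay 66.9% of the regions of 1 library and 68.4% of those of 2 to 8 libraries that fell in whole windows, but 42.2% of those of all 9. Per Mb, regions of 1 library were 3.06 times as dense inside as outside (95% exact binomial interval 2.97 to 3.16), and those of 2 to 8 libraries 3.27 times (3.14 to 3.41). For regions of all 9 libraries the ratio was 1.10 (0.885 to 1.37). In the stretches of the background it was 2.37 (1.99 to 2.80). Chromosome 11 stood apart, with 44.9% of its fully shared regions in stretches that made up 26.7% of its windows. On chromosomes 8, 10, 16 and 20 the stretches held 41.4%, 45.7%, 35.6% and 48.1% of them in 38.9%, 46.7%, 43.6% and 41.8% of the windows. Since peaks of all kinds were used to find the stretches, the high ratios of the first kinds follow in part from the definition.

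Some windows held many fully shared regions. Of the 344 fully shared regions in whole windows of the 5 chromosomes, 132 lay in 14 windows with at least 5 each, chosen after their values were seen. The 5 fullest lay outside the stretches. They were 36 to 37 Mb of chromosome 16 with 21 such regions, 12 to 13 Mb of chromosome 10 with 14, 18 to 19 Mb of chromosome 16 with 14, 15 to 16 Mb of chromosome 11 with 12, and 34 to 35 Mb of chromosome 8 with 11. Without windows of at least 5 the ratio inside to outside was, as a description, 1.96 (95% exact binomial interval 1.48 to 2.60) on the 5 chromosomes and 2.37 (1.92 to 2.91) on the background. Since the fullest of the windows taken out lay outside the stretches, a rise on the 5 chromosomes was fixed by their choice. Over the 254 windows the counts of 1-library and of fully shared regions had a Spearman's rho of 0.175, and the counts of 1-library and of 2-to-8-library regions one of 0.904, given as a description. On the background the same rho values were 0.237 and 0.810. Of the 254 windows 112 (44.1%) held no fully shared region, so many of these counts were tied.

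**Figure D5:**
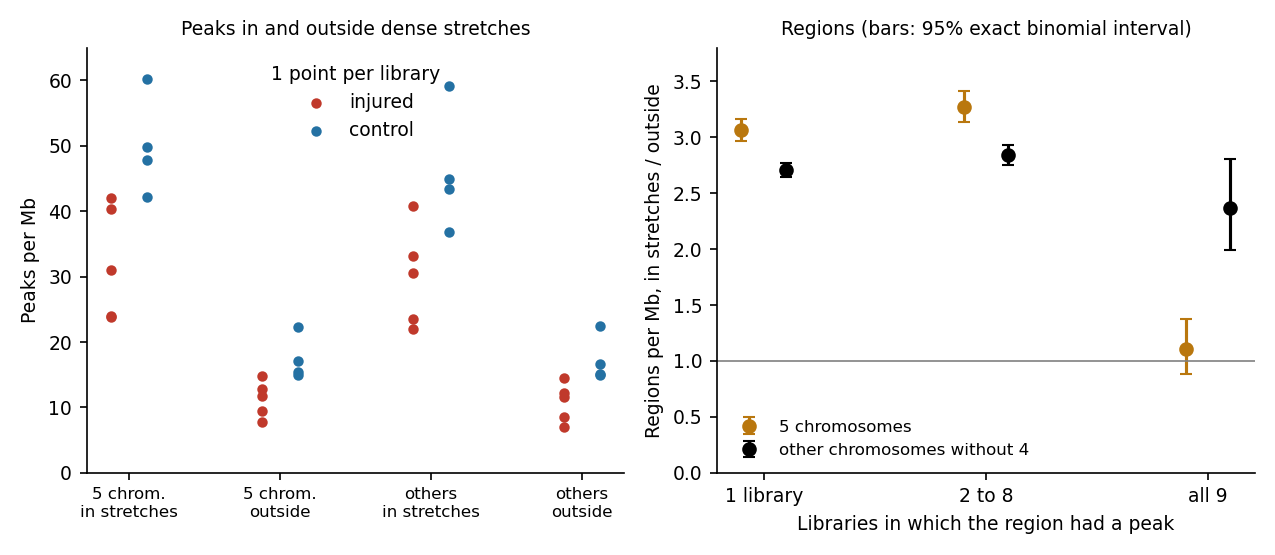
Left, peaks per Mb inside and outside dense stretches, with 1 point per library (injured red, control blue). Right, regions per Mb inside divided by outside, by the number of libraries with a peak (bars are 95% exact binomial intervals); for regions of all 9 libraries the ratio is 1.10 on the 5 chromosomes and 2.37 on the others.

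The fully shared regions with the best median ranks were as follows. The first on chromosome 11 (15112250 to 15115698 in GRCz11) was 3449 bp wide and ranked between 3 and 5 in every library. A second (15122217 to 15123263) lay next to it with ranks of 27 to 137. On chromosome 16 the leading pair were also neighbours, at 15657967 to 15658973 with ranks of 11 to 69 and at 15655402 to 15657703 with ranks of 17 to 106. On chromosome 10 the first region began at position 11 and ended at 1216, at the very start of the sequence, with ranks of 10 to 39. The next on chromosome 10 (16800671 to 16801268) had ranks of 15 to 127.

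Chromosome 20 led with a compact region of 353 bp (4608797 to 4609149), ranked 12 to 94, followed by one near its far end (55163855 to 55164578), ranked 86 to 450. On chromosome 8 the first was at 39415831 to 39416425, with ranks of 61 to 234, and the next at 328010 to 330049, with ranks of 95 to 263. In most of these 10 regions the worst rank belonged to injured library 2, for example 127 on chromosome 10 (16800671 to 16801268), where the other libraries had 15 to 46.

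Some strong peaks had no counterpart elsewhere. The best-ranked region of 1 library on each of the 5 chromosomes was at most 322 bp wide and ranked 252 to 632 in its own list. Those of chromosome 8 (28394725 to 28394878) and chromosome 11 (15001940 to 15002103) came from control library 3. Those of chromosome 10 (5281206 to 5281527) and chromosome 16 (8809288 to 8809476) came from injured library 2, and that of chromosome 20 (12807876 to 12808001) from injured library 1.

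The fullest window of each chromosome was full in every library. On chromosome 11 it was 39 to 40 Mb, with 105, 78, 39, 72 and 67 peaks in injured and 105, 110, 96 and 115 in control libraries. On chromosome 16 it was 36 to 37 Mb, with 67, 82, 51, 70 and 48 in injured and 132, 102, 81 and 116 in control libraries. The groups overlapped in both, the first by injured library 1 and the second by injured library 2. The fullest windows of chromosomes 10 (3 to 4 Mb), 20 (43 to 44 Mb) and 8 (15 to 16 Mb) held 676, 612 and 559 peaks over all libraries.

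The emptiest windows of the same chromosomes held 33 to 54 peaks over all 9 libraries, and from 0 to 16 in a library. They were 36 to 37 Mb of chromosome 8, 20 to 21 Mb of chromosome 10, 16 to 17 Mb of chromosome 11, 28 to 29 Mb of chromosome 16, tied with 30 to 31 Mb there, and 9 to 10 Mb of chromosome 20. The emptiest window of chromosome 11 adjoins the window that holds its strongest regions.

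At a finer scale more 10 kb windows were occupied, with about as many peaks in each. Of 10 kb windows, 19.5% ± 4.85 held a peak in a library on the 5 chromosomes and 12.8% ± 3.60 on the background (SD, n = 9), a ratio of 1.52. An occupied window held 1.24 ± 0.0741 and 1.20 ± 0.0658 peaks (SD, n = 9), a ratio of 1.03. In the equal-length lists these ratios were 1.49 and 1.01. Most 10 kb windows were empty in a library, so additional peaks would mostly fall in empty windows. These ratios thus follow in large part from the window size and the chosen density, and are a description. Over all libraries 53.8% of the 10 kb windows were occupied in at least 1 library on the 5 chromosomes, 39.3% on the background and 28.6% on chromosome 9. Peaks had about the same width, with a median of 237 ± 31.9 bp on the 5 chromosomes and 236 ± 30.2 bp on the background (SD, n = 9). Fully shared regions, merged over 9 lists, were wider, with a median of 819.5 bp against 204 bp for regions of 1 library.

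The comparison of injured with control males, which the choice of chromosomes did not use, asks whether an injury of the heart goes with another accessibility of these chromosomes in sperm. There were 6572, 6090, 3615, 4982 and 3904 peaks on the 5 chromosomes in injured libraries 1 to 5, and 7451, 7510, 6607 and 9569 in control libraries 1 to 4. The groups did not overlap, but injured library 1 and control library 3 lay close together. The means were 5033 ± 1301 for injured (SD, n = 5) and 7784 ± 1259 for control libraries (n = 4; exact two-sided permutation p = 0.0159, adjusted p = 0.0794 over 5 values compared). The ratio was 0.647, close to the 0.637 of the whole lists, so the difference on the 5 chromosomes was in proportion to that of the whole lists. In the equal-length lists the means were 3364 ± 223 and 3179 ± 226 (exact permutation p = 0.23), with the opposite sign.

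The share of the 5 chromosomes did not differ beyond the spread. Of the peaks on the 24 chromosomes they held 28.0%, 30.1%, 29.8%, 27.3% and 28.7% in injured libraries 1 to 5 and 29.8%, 28.1%, 28.0% and 27.1% in control libraries 1 to 4. The groups overlapped almost wholly. The means were 28.8% ± 1.16 for injured (SD, n = 5) and 28.3% ± 1.13 for control libraries (n = 4; exact permutation p = 0.476, adjusted p = 0.615). At equal length they were 28.2% ± 1.44 and 26.9% ± 1.82 (exact permutation p = 0.262). Single chromosomes were tested as shares of the peaks on all 25 chromosomes, chromosome 4 included, so these shares have another base than those above. Tested over all 25 chromosomes, the shares of chromosomes 8, 10, 11, 16 and 20 had adjusted p of 0.952, 0.765, 0.952, 0.952 and 0.952 by the exact permutation test. The largest of these differences was on chromosome 10, with 4.895% ± 0.395 in the injured group (SD, n = 5) and 4.53% ± 0.284 in the control group (n = 4; unadjusted exact permutation p = 0.167).

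Nor did the layout differ beyond the spread. The first and last 25% of the chromosomes held 62.8% ± 3.03 of the peaks on the 5 chromosomes in the injured group (SD, n = 5) and 62.2% ± 1.24 in the control group (n = 4; exact permutation p = 0.754). The stretches held 65.1% ± 2.19 and 65.6% ± 1.80 (SD, n = 5 and n = 4, not tested). Median peak width was 244 ± 38.6 bp and 229 ± 23.6 bp (exact permutation p = 0.492). The percentage of peaks in regions with a peak in another library was 71.7% ± 4.50 in the injured group (SD, n = 5) and 65.95% ± 1.31 in the control group (n = 4; exact permutation p = 0.0476, adjusted p = 0.119). It was highest in injured library 3, whose list was the shortest, at 76.98%, and lowest in control library 4, whose list was the longest, at 64.5%. The order did not follow list length throughout. Injured library 1, with 29622 peaks, had 64.6%, and control library 2, with 34354 peaks, had 67.7%. At equal length the sign was opposite, with 65.97% ± 3.62 and 71.0% ± 3.78 (exact permutation p = 0.0952).

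Among 1 Mb windows 0 of 254 on the 5 chromosomes differed in their share of the list after Benjamini-Hochberg adjustment over all 1329 windows tested (lowest adjusted p = 0.959, exact permutation test). At an unadjusted p below 0.05 there were 13, or 5.12%, against 4.14% of all windows tested. Of the 13, 10 had a higher share in injured libraries, 3.94% of the 254 windows against 1.5% of all windows tested, and 3 a higher share in control libraries, 1.18% against 2.63%. At equal length there were 12 such windows, where 4.51% of all windows tested were called. Of these, 10 were on the injured and 2 on the control side, 3.95% and 0.791% of 253 windows, against 2.26% and 2.26% of all windows tested. This tilt to the injured side was not tested. The smallest p this test can give is 0.00794, so a count of 0 after adjustment is no evidence of equal shares.

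First among windows with a higher share in injured libraries was 0 to 1 Mb of chromosome 16. It held 22, 17, 12, 18 and 15 peaks in injured and 13, 22, 19 and 20 in control libraries, so that the counts overlapped while the shares did not, at 0.0756% ± 0.00684 (SD, n = 5) against 0.0531% ± 0.0121 (n = 4; exact permutation p = 0.00794, adjusted p = 0.959). Next was 15 to 16 Mb of chromosome 11, which holds that chromosome's strongest regions and was named for its larger difference over 49 to 50 Mb of chromosome 8, tied with it in p, with 0.128% ± 0.0161 and 0.0926% ± 0.00638 (exact permutation p = 0.0159, adjusted p = 0.959). With lists of equal length the differences of both shrank to 0.00322 and 0.000322 percentage points (exact permutation p = 0.802 and 1).

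Higher in control libraries came first 18 to 19 Mb of chromosome 10, a sparse window with 7, 5, 3, 5 and 4 peaks in injured and 8, 8, 8 and 20 in control lists (exact permutation p = 0.0159, adjusted p = 0.959). Next was 48 to 49 Mb of chromosome 20, with 27, 28, 20, 27 and 19 peaks in injured and 43, 40, 51 and 70 in control lists (exact permutation p = 0.0238, adjusted p = 0.968). In lists of equal length the differences did not shrink, at -0.0132 and -0.0351 percentage points against -0.00864 and -0.0342 as deposited, while the exact permutation p was 0.357 and 0.103.

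Single regions gave no call either. Fisher's exact test, adjusted over 44043 regions detected in 2 to 7 libraries, called 0 of 10039 regions on the 5 chromosomes (lowest adjusted p = 0.753). Only group-exclusive regions, 160 of the 44043, can reach the smallest p of this test. They are too few for a call after adjustment, so the count of 0 is no evidence of equal detection. Regions of 2 libraries, 4694 of the 10039, cannot reach even an unadjusted p below 0.05. Regions of 3 libraries (2273) can reach it only if all 3 are control libraries. Those of 6 libraries (563) can reach it only if all 5 injured libraries are among them. The threshold was therefore not equally open to both directions. At an unadjusted p below 0.05 there were 472, or 4.70%, against 4.48% of all regions tested. Of these, 445 (4.43%) were detected more often in control and 27 (0.269%) more often in injured libraries, against 4.27% and 0.213% of all regions tested. Detected in all 4 control and 0 injured libraries were 34 regions, 0.339% against 0.35% of all regions tested, or 0.363% for both kinds of exclusive region. Detected in all 5 injured and 0 control libraries were 0 of 10039 regions, where 0.0136% of all regions tested were of this kind. If regions were independent, a count of 0 would allow a share of up to about 0.0299% (3 in 10039). Neighbouring regions are not independent, so this limit is only a rough guide. These shares are near those of all regions tested. Control lists were longer than injured lists, and the part of list length in the control-sided count was not tested beyond the equal-length lists. Nor was the part of the threshold's unequal reach tested.

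First by rank among the 34 was a region on chromosome 8 (53366558 to 53367030 in GRCz11), which ranked 3341, 2917, 1466 and 6313 in control libraries 1 to 4. The next lay on chromosome 16, at 4140156 to 4140581 with ranks of 7494 to 13304 and at 54226722 to 54227359 with ranks of 4073 to 18170. All 3 had peaks of low score, from 28 to 145, where the lowest score in the lists was 13. By chromosome the 34 were 10 on chromosome 16, 7 each on chromosomes 8 and 11, 6 on chromosome 20 and 4 on chromosome 10. In the equal-length lists 151 of 4958 regions, 3.05%, had an unadjusted p below 0.05, against 3.1% of all regions tested. More often detected in injured libraries were 40, 0.807% against 0.674%, and in control libraries 111, 2.24% against 2.43%. The unequal reach of the threshold for regions of 3 and 6 libraries applies here too. After adjustment 0 were called. At equal length 8 regions were found in all control and 0 injured libraries, and 2 in all injured and 0 control libraries, 0.161% and 0.0403% of 4958 regions against 0.212% and 0.0346% of all regions tested, or 0.246% for both.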

How the data were processed

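ATAC-seq peak lists of 9 libraries were used. The authors' deposited lists give each peak a position and a score, whose scale no source states, so scores served only to rank peaks within a list (ties by width, then position). The build GRCz11 and the tools MACS2, Bowtie2, bedtools, Picard, SAMtools and Trim Galore appear, with no settings, in the submitters' processing notes. Read shifting, duplicate handling and the threshold for calling a peak are not stated.

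Positions are 1-based. Chromosome length was taken as the highest peak end. Genes and sequences are not given, because a GRCz11 genome was not used here. On 160 alternate contigs named for the 5 chromosomes lay 5707 peaks, which were not members. Windows of 1 Mb were placed by peak centre and tested with at least 18 peaks.

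Values per library were compared over all assignments of the libraries by an exact two-sided permutation test. Fisher's exact test was used for regions. Adjustment was Benjamini-Hochberg. Python 3.11.15, NumPy 2.4.6, pandas 2.3.3 and SciPy 1.17.1 were used, and the tests were tested on simulated data. Named windows were the fullest and emptiest of each chromosome and the 2 with the lowest p in each direction. Named regions were, by median rank, the first 2 of all 9 libraries and the first of 1 library on each chromosome, and the first 3 exclusive to a group. The members, lists and tests were chosen with earlier results of these data known. Alternatives were other lists, windows, overlaps, backgrounds and libraries left out.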

Additional observations from a re-analysis of the deposited data

Results flagged for a closer look

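Of 88 groups of 4 or 5 values per library examined, 3 had a library far from the others, where chance alone would give about 4.4. All 3 are in the equal-length lists. In control library 4 the median 1 Mb window of the 5 chromosomes held 1.29 times the peaks of the median background window, while the other control libraries all had 1.67. In control library 3 the peaks on the 5 chromosomes covered 1022 kb, and the nearest other control library had 1174 kb. In injured library 1 the background chromosomes had 8.68 peaks per Mb, and the nearest other injured library had 8.43.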

How the results depend on the processing

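Of 370 recomputed values 279 kept their direction and their side of the threshold or moved within the spread, 27 lost their call, 60 moved further and 4 reversed. The cause of these changes was not tested. In the equal-length lists the injured minus control difference reversed to 184.8 for peaks, to -21.65 bp for median width and to -5.04 percentage points for shared peaks. There 66.1% of windows exceeded the background median, 57.7% of peaks lay in stretches and the ratio outside them was 1.15. Density ratios were 1.61 for regions of 1 library and 1.51 for 2 to 8, with 151 regions at an unadjusted p below 0.05 and 10 exclusive to a group. With the better-ranked 50% of each list the density ratio was 1.49, the share in stretches 57.5%, the outside ratio 1.12, the ratios by class 1.602 and 1.47, and the region counts 220 and 15. With 0.5 Mb windows 67.3% exceeded the median, the densest 10% held 27.6%, stretches held 40.3%, the outside ratio was 1.28 and 31 windows had an unadjusted p below 0.05. With 2 Mb windows the densest 10% held 22.2% and 5 had such a p. With 50% reciprocal overlap the shared difference was 5.97 points (exact permutation p = 0.0794) and the class ratios were 1.62 and 1.56. With chromosome 4 in the background the density ratio was 1.48, that of 1-library regions 1.51 and that of fully shared regions 1.17. The 1-library ratio was 1.58 without chromosome 11 and 1.52 without chromosome 20. Stretches above the 90th percentile held 22.4% of peaks with an outside ratio of 1.43, and runs of 3 windows gave 1.14.

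Leaving out each library in turn gave a shared difference of 4.34 to 7.395 points (exact permutation p = 0.0286 to 0.143). Its p was below 0.05 only without injured library 1. The difference in the outer 50% was -0.158 (without injured library 3) to 1.75. The share in stretches was 60.5% (without injured library 2) to 66.3%, the outside ratio 1.03 to 1.12, and the 1-library ratio 1.55 to 1.58. Windows at an unadjusted p below 0.05 numbered 7 to 12. Regions at such a p and group-exclusive regions both numbered 45 to 147, since with fewer libraries only exclusive regions can reach it.

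The equal replicate numbers share no stated origin. Correlations of same-numbered libraries were -0.278 to 0.0269, against -0.122 to 0.207 for libraries of other numbers. This is another measure than Spearman's rho over the 254 windows, which was 0.805 to 0.936 between single libraries. It therefore does not mean that the libraries were unlike. With only 4 same-numbered pairs the correlations by number cannot tell whether the numbers pair libraries. With the replicate block the difference was -2469.5 peaks (exact p = 0.125, the smallest possible) and 5.52 points in shared peaks (exact p = 0.25), and 0 windows had an unadjusted p below 0.05, which that design cannot reach. Depth is unknown, which limits any statement on undetected sites.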
